A study of Homo sapiens with 19 samples.

Results

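hsa-miR-210-3p (miR-210-3p) is the 3′ arm of the MIR210 hairpin, 1 mature miRNA of the 1043 that were listed with at least 1 count in any library of the series. It was taken by its name in each library's list of counts and followed as a share of all miRNA counts, with a library that did not list it taken as 0. It was chosen by its share of counts and its rank in the groups, with those values known, so its levels, ranks and differences between groups are given as a description with their error and carry no test. Small RNA was sequenced from Caco-2, an established human colorectal epithelial line labelled wild type, and from its medium. All cells were grown with 20% fetal bovine serum to 80% confluence and then kept for 24 h without serum or antibiotics.

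The 5 groups are RNA of the cells themselves (cell lysate, 3 libraries), RNA of the medium after debris was spun out (total extracellular RNA, total exRNA, 4), the pellet of a 40000 xg spin of that medium (P40, 4), the pellet of a following 100000 xg spin (P100, 4) and the supernatant above it (S100, 4). S100 replicate 1 held 48 counts and 28 miRNAs and was left out, which leaves 18 of 19 libraries and 3 S100 libraries. Depth was 198878 to 225290 counts in S100, 37453 to 157051 in lysate, 34427 to 61622 in total exRNA, 10490 to 26096 in P40 and 10017 to 27027 in P100. RNA of S100 and total exRNA was precipitated before Trizol, while P40, P100 and lysate went into Trizol directly, so fraction and preparation cannot be told apart where these differ. No label says that replicates were separate cultures, so SEs and p-values measure the spread between these libraries, which may be technical. The labels name 1 line under 1 condition: no group is labelled as hypoxic. All 7 intestinal epithelial markers fixed for Caco-2 (miR-192-5p, miR-194-5p, miR-215-5p, miR-200b-3p, miR-200c-3p, miR-141-3p and miR-429) had counts in every group, with a summed share of 4.27% to 5.45% in lysate and 2.54% to 2.87% in S100. The lower sum in S100 was mostly that of miR-200c-3p (mean 4.13% in lysate and 0.360% in S100). miR-194-5p (0.191% and 0.104%) and miR-200b-3p (0.112% and 0.0429%) were lower as well. In contrast, miR-192-5p, miR-215-5p, miR-141-3p and miR-429 had larger mean shares in S100 than in lysate.

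miR-210 is the best known miRNA of the hypoxia response. Hypoxia-inducible factors bind its promoter when oxygen is low, and the mature 3′ arm, loaded into an Argonaute protein, represses mRNAs such as that of the iron-sulfur cluster scaffold protein ISCU, which lowers mitochondrial respiration. Like other miRNAs it can leave cells, and outside cells miRNAs are found inside vesicles and also free of them, bound to Argonaute or other proteins. Spins of the kind used here pellet larger and then smaller particles, and soluble complexes tend to stay in the supernatant.

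The hairpin and its mature arms are shown because both arms were counted and because of the seed, the bases that pair with targets. The seed sets miR-210-3p apart from the other miRNAs whose sequence was found, 933 of the 1043 measured. Sequences and positions are those of RefSeq for GRCh38.p14, in which MIR210 lies on the minus strand at chr11:568089-568198, within the span of the long noncoding RNA gene MIR210HG at chr11:565657-568457. The 3′ arm is at chr11:568112-568133 and the 5′ arm at chr11:568150-568171. In the hairpin, capitals mark the 5′ arm and then the 3′ arm, and in the mature sequences they mark the seed, bases 2 to 8.
MIR210 hairpin: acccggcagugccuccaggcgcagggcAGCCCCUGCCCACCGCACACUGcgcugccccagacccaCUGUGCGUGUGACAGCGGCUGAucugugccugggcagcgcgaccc
miR-210-3p: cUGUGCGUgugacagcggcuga
miR-210-5p: aGCCCCUGcccaccgcacacug
miR-147b-3p: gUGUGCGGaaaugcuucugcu
Among 2370 mature human names in the table, 1 carries the seed UGUGCGU, miR-210-3p itself. miR-147b-3p is the only other that shares the first 6 of these bases. It had 26 counts over the 3 S100 libraries and 2 counts over all others, against 19899 counts of miR-210-3p in S100. How reads that match several miRNAs were counted was not given in the sources used here.

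miR-210-3p stood among the 10 most abundant miRNAs of S100 and between rank 25 and rank 111 in every library of the other groups. In S100 it made up 3.17% of counts in replicate 2 (6308 counts), 3.03% in replicate 3 (6822 counts) and 3.10% in replicate 4 (6769 counts), ranks 8, 7 and 9. Its Wilson 95% intervals there ran from 2.96% to 3.25% over all 3 libraries. The 3 S100 libraries thus lay within 1.05 times of each other, and every one was above every library of the other groups.

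In cell lysate it made up 0.401% in replicate 1 (150 counts), 0.329% in replicate 2 (517) and 0.388% in replicate 3 (256), ranks 37, 45 and 39. In total exRNA the shares were 0.278% (107 counts), 0.0714% (44), 0.224% (110) and 0.354% (122) in replicates 1 to 4, ranks 56, 111, 66 and 51. Lysate was close among its replicates, while total exRNA spread 4.96 times from its lowest library, replicate 2, to its highest. That lowest library was the deepest of its group, at 61622 counts.

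In P40 the shares were 0.743% (107 counts), 0.625% (119), 0.107% (28) and 0.277% (29) in replicates 1 to 4, ranks 25, 30, 95 and 61. In P100 they were 0.139% (25 counts), 0.0989% (23), 0.181% (49) and 0.180% (18), ranks 79, 94, 68 and 69. P40 was the most spread group, with replicates 1 and 2 above every lysate library and replicates 3 and 4 below every lysate library. P100 was low in every library, all 4 below the lowest lysate value, but with 18 to 49 counts its single shares are the least precise.

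The mean share ran in the order S100, P40, lysate, total exRNA and P100. It was 3.10% ± 0.0719 in S100 (SD, n = 3), 0.438% ± 0.296 in P40 (n = 4), 0.372% ± 0.0381 in lysate (n = 3), 0.232% ± 0.12 in total exRNA (n = 4) and 0.150% ± 0.0392 in P100 (n = 4). Only the step from S100 to the rest was without overlap between neighbours in this order: P40 and lysate, lysate and total exRNA, and total exRNA and P100 each had overlapping libraries. The coefficient of variation was 2.32% in S100 and 67.7% in P40. By mean share it ranked 8th of 858 miRNAs detected in S100, 41st of 546 in lysate, 43rd of 466 in P40, 65th of 630 in total exRNA and 75th of 462 in P100.

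Its neighbours in the ranking differed from group to group. In S100 it stood between miR-373-3p (3.31%) and miR-372-3p (2.99%), a pair of embryonic-type miRNAs from 1 cluster, and in lysate between miR-194-3p (0.386%) and miR-125a-5p (0.367%). In P40 they were miR-532-5p (0.439%) and miR-10396b-5p (0.421%), in total exRNA miR-660-5p (0.234%) and miR-638 (0.230%), and in P100 miR-200b-3p (0.154%) and miR-320b (0.148%). miR-373-3p had a larger share in lysate, 5.12%, than in S100, so the miRNA that stood next to miR-210-3p in S100 stood well above it in the cells.

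**Figure D1:**
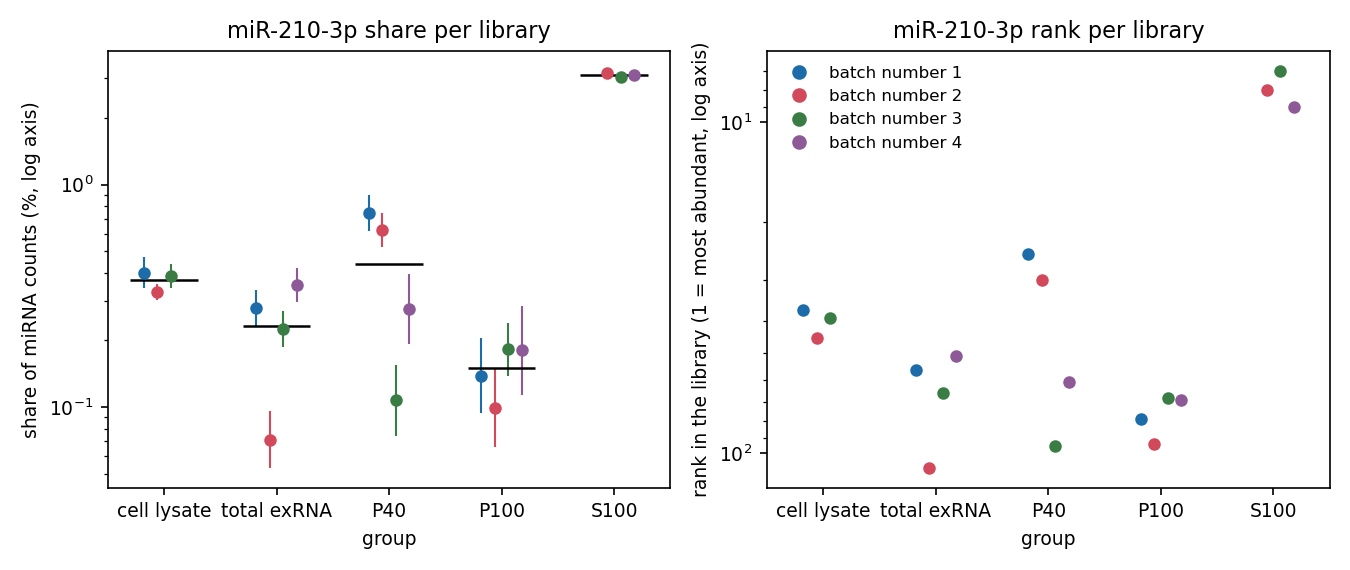
Left, share of miRNA counts (%, log axis) taken by miR-210-3p in each of 18 libraries by group, with Wilson 95% intervals (thin bars), colours for the batch number and a black line at the group mean. Right, its rank in each library (log axis, 1 = most abundant). The 3 S100 libraries sit at 3.03% to 3.17% and ranks 7 to 9, above all others, and P40 spreads from 0.107% to 0.743%.

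Compared with lysate, the share in S100 was higher by a ratio of 8.32 between group means, and the lowest S100 library was 7.56 times the highest lysate library. With edgeR's TMM factors (a trimmed mean of the log ratios between libraries) as the scaling, the log2 difference was 2.87 ± 0.58 (SE), the 44th highest of the 227 miRNAs tested, whose median was -0.04. Other settings gave 2.79 (only the pair of groups compared in the fit) to 3.59 (no filter on low counts). Over the same 227 miRNAs, 45 (19.8%) had all S100 libraries above all the others by share, so this separation was shared by many miRNAs of S100.

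Against the other medium groups S100 was also higher without overlap. The log2 difference was 3.87 ± 0.54 from total exRNA (12th highest of 227), 2.98 ± 0.52 from P40 (17th) and 4.32 ± 0.56 from P100 (9th). The ratios of mean shares were 13.4, 7.08 and 20.7, and the lowest S100 library was 8.55, 4.08 and 16.7 times the highest library of each. These comparisons share the S100 libraries.

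The batch number in the labels equals the replicate number, and within each number the direction was the same. S100 was 9.63 and 7.81 times lysate in batches 2 and 3, the only batches with both. It was 44.4, 13.5 and 8.74 times total exRNA, 5.08, 28.2 and 11.2 times P40 and 32.1, 16.7 and 17.2 times P100 in batches 2, 3 and 4. The ratio to total exRNA and P40 varied with the libraries those groups contributed, since S100 itself hardly moved between batches.

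P100 was lower than lysate in every library. Its log2 difference from lysate was -1.45 ± 0.53, the 44th lowest of 227, and in batches 1, 2 and 3 the ratio of shares was 0.346, 0.300 and 0.467. All P100 libraries were below all lysate libraries for 42 of 227 miRNAs (18.5%), so this too was a common pattern. In total exRNA the log2 difference was -0.995 ± 0.508 with overlapping libraries, and the within-batch ratios were 0.695, 0.217 and 0.577.

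P40 gave no direction against lysate. The log2 difference was -0.11 ± 0.51 and turned to 0.23 with library size in place of TMM and to 0.02 with DESeq2. Within batches 1 and 2 P40 was 1.86 and 1.90 times lysate, and within batch 3 it was 0.277 times. Against P100 it was 5.36, 6.32, 0.592 and 1.54 times in batches 1 to 4.

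The low P40 libraries each resembled the low total exRNA library beyond miR-210-3p. Taking each library's deviation from its group mean over the 227 miRNAs, total exRNA replicate 2 correlated at 0.528 with P40 replicate 3 and 0.447 with P40 replicate 4, and at -0.517 and -0.568 with P40 replicates 1 and 2. Of all pairs of libraries from different groups, 0.528 was the highest value and -0.568 the lowest. P40 replicates 3 and 4 correlated at -0.05 with each other, and replicates 1 and 2 at 0.19. Deviations within a group sum to 0, which pushes values within P40 below 0, so they do not show unlikeness. For the same reason the negative values with replicates 1 and 2 partly follow from the positive ones. These are correlations across miRNAs, which are not independent replicates. For miR-210-3p the deviations (log2) were -1.49 in total exRNA replicate 2, -1.66 and -0.45 in P40 replicates 3 and 4, and 1.09 and 1.02 in P40 replicates 1 and 2. Without these 3 low libraries the mean share was 0.684% in P40 and 0.285% in total exRNA, and the log2 difference from lysate was 0.82 in P40 and -0.48 in total exRNA. As these libraries are low in miR-210-3p, leaving them out raises both means by the choice itself. What sets these libraries apart was not tested.

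Values of other RNA sources moved as follows. The medium had held serum before the serum-free day, and 5 miRNAs of blood cells (miR-451a, miR-144-3p, miR-486-5p, miR-223-3p and miR-142-5p) had a summed share of 0.0395% to 0.0439% in lysate, with miR-451a, miR-144-3p and miR-223-3p at 0. The sum was 0.229% to 0.319% in P40, 0.120% to 0.266% in P100, 0.0871% to 0.232% in total exRNA and 0.00799% to 0.0141% in S100, with miR-142-5p at 0 in each. The lower sum in S100 than in lysate was that of miR-486-5p (mean 0.0409% in lysate and 0.0027% in S100), while miR-451a (0.00589%), miR-144-3p (0.00243%) and miR-223-3p (0.000611%) had counts in S100 and none in lysate. Their part in the values of miR-210-3p was not tested. The liver miRNA miR-122-5p had 0.0307% to 0.0498% in S100 and 0.0146% to 0.0576% in lysate. The counts give shares and not amounts: a larger amount of miR-210-3p and a smaller amount of other miRNAs cannot be told apart.

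The 5′ arm, which is usually the discarded strand of this hairpin, was counted far less often than the 3′ arm in every group. miR-210-5p had 35, 63 and 34 counts in S100 replicates 2 to 4 (0.0176%, 0.0280% and 0.0156%). Lysate replicates 1 to 3 had 0, 6 and 2 counts, total exRNA replicates 1 to 4 had 0, 4, 0 and 1, P40 had 3 counts in replicate 4 and 0 in the others, and P100 had 0 in all 4. A count of 0 over the summed P100 libraries allows a share of up to 0.00383%. Every S100 library was above every lysate library, but the arm did not pass the filter on low counts and was not tested. The 3 counts of P40 replicate 4 make a share of 0.0286%, above each S100 library, at the limit of what that depth resolves.

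As a part of both arms together, miR-210-5p made up 0.659% in S100 (132 counts, exact 95% interval 0.552% to 0.781%) and 0.859% in lysate (8 counts, 0.372% to 1.69%). It was 1.29% in total exRNA (5 counts, 0.420% to 2.98%), 1.05% in P40 (3 counts, 0.217% to 3.03%) and 0 of 115 counts in P100 (exact upper limit 3.16%). These intervals overlap, but they rest on pooled counts and leave out the spread between libraries. In S100 replicates 2 to 4 the 5′ arm had 35, 63 and 34 counts beside 6308, 6822 and 6769 of the 3′ arm. A difference between groups in the arms' proportion was not tested. In counts pooled by group, the 5′ arm was 6.69 times as large a share in S100 as in lysate (exact interval 3.30 to 15.8), and the 3′ arm 8.74 times (8.18 to 9.34). Both arms were therefore higher in the pooled S100 counts, and the intervals cover counting error only.

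**Figure D2:**
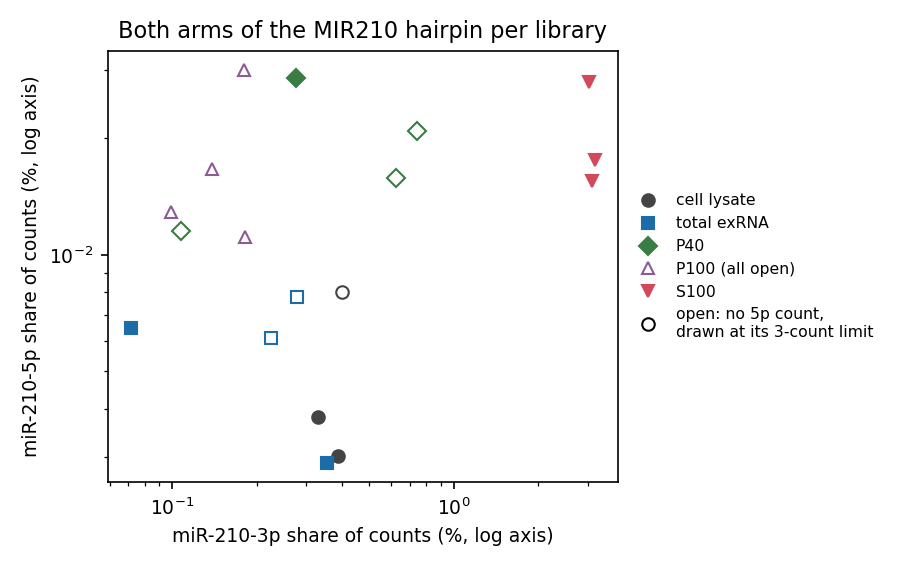
Share of counts of miR-210-5p (%, log axis) against that of miR-210-3p (%, log axis), 1 point per library, shaped and coloured by group. Open points had no count of the 5′ arm and are drawn at the share that 3 counts would give. The 3 S100 libraries lie at 0.0156% to 0.0280% of the 5′ arm, and all 4 P100 points are open.

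The region around the hairpin gave no other abundant miRNA. RefSeq places 6 other hairpins within 2 Mb of MIR210. Of their mature miRNAs, miR-6743-3p had 6 counts in S100 and miR-7847-3p had 3 in total exRNA. No count was listed for the rest, among them both arms of miR-675, the miRNA of the imprinted H19 RNA. Within this distance, counts of more than a few came from the 2 arms of MIR210 alone.

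The base composition of miR-210-3p is on the rich side. G and C make up 63.6% of its bases, against a median of 50.0% over the 199 tested miRNAs whose sequence was found, and 21.6% of these had at least as much. The 43 with at least that content had a median log2 difference between S100 and lysate of 0.72, against -0.04 over all 199 and 2.87 for miR-210-3p. Between P100 and lysate their median was 0.43, while miR-210-3p was at -1.45. Across the 199 miRNAs the rank correlation of GC content with the difference of S100 from lysate was 0.0805, a description over miRNAs that share libraries. Neither the motif GGAG, found in 16.7% of the 933 measured miRNAs with a sequence, nor CCCU, found in 13.8%, occurs in the 3′ arm (given strand only). CCCU lies in the 5′ arm. Both have been described in miRNAs sorted into vesicles, and their absence says only that these letters are not in this sequence.

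The miRNAs with the most similar pattern were those that were also high in S100. Likeness was the Pearson correlation of log2 CPM (TMM-scaled relative counts, prior count 2) over the 18 libraries, among 226 other tested miRNAs. The libraries share groups, depth and preparation, so the values are a description. miR-130b-3p came first at 0.93, followed by miR-338-3p (0.89), miR-378a-3p (0.86), miR-138-5p (0.84), miR-1228-5p (0.84), miR-574-5p (0.815), miR-339-5p (0.81) and let-7b-5p (0.80). Of these, miR-138-5p and miR-1228-5p passed the low-count filter only through S100. miR-1228-5p had 1 count outside S100, in lysate replicate 3, so its place here was set by S100 alone. In all, 50 of 226 miRNAs were over 0.5. The 3 most alike are printed to show that they come from other chromosomes and carry other seeds (capitals, bases 2 to 8).
miR-130b-3p, chr22:21653354-21653375, plus strand: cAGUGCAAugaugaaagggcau
miR-338-3p, chr17:81125887-81125908, minus strand: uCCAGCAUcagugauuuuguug
miR-378a-3p, chr5:149732867-149732888, plus strand: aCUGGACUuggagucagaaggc

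miR-130b-3p, of the miR-130 and miR-301 family, had shares of 1.48%, 1.94% and 1.78% in S100 replicates 2 to 4 and 0.278%, 0.430% and 0.744% in lysate replicates 1 to 3. In P40 it had 0.805%, 0.494%, 0.364% and 0.315% in replicates 1 to 4, and in P100 0.185% to 0.259%. It thus followed miR-210-3p in its high S100, its low P100 and in P40 replicates 1 and 2 being above 3 and 4. Its S100 mean was a smaller step above lysate: the log2 difference was 1.70, against 2.87 for miR-210-3p.

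miR-338-3p, best known from nervous tissue, had 0.627%, 0.343% and 0.530% in S100 and 0.0187%, 0.0287% and 0.0197% in lysate. Outside S100 and lysate it rested on at most 23 counts per library. In P40 it had 9 counts in replicate 1, 10 in replicate 2, 0 in replicate 3 and 3 in replicate 4, the same high and low pairs as miR-210-3p. miR-378a-3p, a miRNA of mitochondrial metabolism encoded within PPARGC1B, had 5.58%, 5.17% and 5.30% in S100 and 1.43%, 1.29% and 1.66% in lysate, and its P40 libraries did not split that way (0.812%, 1.07%, 1.03% and 1.03% in replicates 1 to 4).

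Most of this likeness came from S100. Over the 15 libraries without S100 the correlation was 0.78 for miR-130b-3p (2nd of 226) and 0.69 for miR-338-3p (6th), but 0.46 for miR-378a-3p, 0.52 for miR-138-5p, 0.21 for miR-1228-5p, 0.33 for miR-574-5p, 0.43 for miR-339-5p and 0.52 for let-7b-5p. The value for miR-1228-5p rests on 1 count and is not read. Only miR-130b-3p and miR-338-3p of the 8 stayed among the 8 most alike, and 21 miRNAs were over 0.5. The 3 most alike were then miR-324-3p (0.78), miR-130b-3p and miR-106b-3p (0.76). miR-9-3p (-0.81), miR-429 (-0.78) and miR-215-5p (-0.71) ran most opposite. With Spearman in place of Pearson over 18 libraries, 5 of the 8 were kept.

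**Figure D3:**
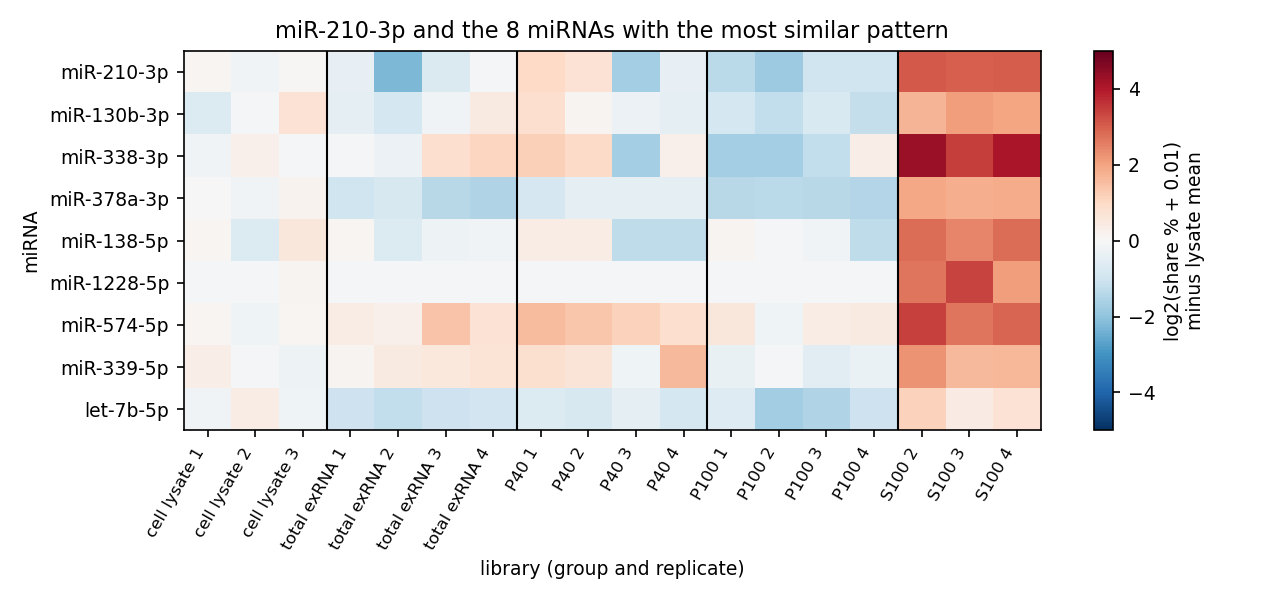
Share of counts of miR-210-3p and the 8 miRNAs with the highest Pearson correlation to it (rows) in each library (columns), as log2(share in % + 0.01) minus the lysate mean of the same miRNA. Red is higher and blue lower than lysate. All 9 are red in S100, and miR-210-3p, miR-130b-3p and miR-338-3p are among those with P40 replicates 1 and 2 above replicates 3 and 4.

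Other miRNAs linked to hypoxia lay on both sides of lysate in every medium group. Of 21 miRNAs described as raised by hypoxia (miR-210-3p is not in the list), 18 passed the filter, and the quasi-likelihood F test of edgeR (Benjamini-Hochberg adjustment over all 227, called at an adjusted p below 0.05) found 5 higher and 8 lower in S100 than in lysate. Over all tested miRNAs 73 were higher (32.2%) and 68 lower (30.0%), a background that includes miRNAs that passed the filter only through S100. The list's median log2 difference was -0.25, against -0.04 over all 227. The split depends on the scaling: with DESeq2 it was 8 higher and 6 lower, and with no filter on low counts 7 and 3. Those settings moved the median of all miRNAs up by 0.41 and 0.69.

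Higher in S100 were miR-106a-5p of a miR-17 paralog cluster (log2 difference 4.09 ± 0.64, edgeR adjusted p = 1.107e-05), miR-125b-5p (3.23 ± 0.64) and the intestinal miR-192-5p (1.75 ± 0.43). Also higher were miR-27a-3p (1.73 ± 0.35) and miR-23a-3p (1.28 ± 0.34). They come from 1 cluster with miR-24-3p, which is also on the list and was not called (0.17 ± 0.37). By library, miR-192-5p had 1.87%, 1.47% and 1.41% in S100 and 0.155%, 0.721% and 0.377% in lysate, without overlap. Lower were miR-103a-3p (-4.71 ± 0.43, edgeR adjusted p = 6.733e-09), miR-107 (-3.78 ± 0.39), miR-23b-3p (-3.68 ± 0.35), miR-181a-5p (-1.76 ± 0.40), miR-155-5p (-1.69 ± 0.51), miR-26a-5p (-1.49 ± 0.34), miR-93-5p (-0.98 ± 0.36) and miR-373-3p (-0.76 ± 0.31).

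miR-103a-3p and miR-107, which share a seed and are known as regulators of DICER1 and of metabolism, were lower in S100 than in lysate, where miR-210-3p was higher. In total exRNA and P100 both were below lysate, as miR-210-3p was by its group means. In P40 both were also below lysate (log2 difference -1.99 and -1.83), where miR-210-3p gave no direction. Over the 15 libraries without S100 miR-107 was the 7th most alike (0.68), while miR-103a-3p was not among the 8 most alike. miR-103a-3p had 0.215%, 0.218% and 0.263% in S100 and 5.15%, 3.90% and 7.32% in lysate, so it stood above miR-210-3p in every lysate library and below it in every S100 library. The pairs miR-103a-3p with miR-107, miR-23a-3p with miR-23b-3p and miR-106a-5p with miR-17-5p differ by few bases and may have exchanged reads. miR-93-5p and miR-373-3p lost the call when any 1 lysate or S100 library was left out and under each other scaling. With library size, DESeq2 size factors, no filter and DESeq2 the difference was -0.82, -0.58, -0.29 and -0.58 for miR-93-5p and -0.62, -0.37, -0.08 and -0.37 for miR-373-3p. With no filter miR-155-5p (-1.05), miR-181a-5p (-1.06) and miR-26a-5p (-0.83) lost it as well, and miR-155-5p also lost it without lysate replicate 3 (-0.98) or without any 1 S100 library (-1.14 to -1.44).

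The list was also split in the other fractions. In total exRNA 3 of 18 were higher (miR-27a-3p 1.89 ± 0.34, miR-106a-5p 1.69 ± 0.59 and miR-21-5p 1.50 ± 0.35) and 3 lower (miR-107 -1.38 ± 0.32, miR-103a-3p -1.17 ± 0.34 and miR-23b-3p -0.95 ± 0.29), against 18.9% higher and 16.3% lower over all miRNAs. The 3 lower calls were all lost with no filter on low counts. miR-106a-5p also lost its call without lysate replicate 1 (1.47), without total exRNA replicate 1 (1.45), without total exRNA replicate 3 (1.58) and with the replicate block (1.68). miR-103a-3p lost it without lysate replicate 3 (-0.91), and miR-23b-3p without lysate replicate 1 (-0.65) or total exRNA replicate 4 (-0.76), with library size (-0.63) and with DESeq2 size factors (-0.72).

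In P40 1 was higher (miR-106a-5p 2.40 ± 0.61) and 4 lower (miR-103a-3p -1.99 ± 0.34, miR-107 -1.83 ± 0.33, miR-23b-3p -1.67 ± 0.30 and miR-93-5p -1.10 ± 0.34), against 13.7% and 13.2% over all. miR-93-5p lost its call with library size (-0.75), with only the pair of groups fitted (-1.01), without lysate replicate 3 (-0.84) and without the 3 low libraries (-0.60), where 2 were higher and 3 lower. In P100 1 was higher (miR-125b-5p 2.50 ± 0.65) and 5 lower (miR-103a-3p -2.92 ± 0.35, miR-107 -2.71 ± 0.35, miR-23b-3p -2.25 ± 0.30, miR-26a-5p -1.06 ± 0.31 and miR-93-5p -1.02 ± 0.34), against 16.7% and 20.7%. Without lysate replicate 3 the lower count in P100 was 3, since miR-26a-5p (-0.69) and miR-93-5p (-0.71) lost their calls, and miR-93-5p also lost it without P100 replicate 2 (-0.88) or 3 (-0.95). With no filter miR-26a-5p (-1.07) lost it too. miR-103a-3p, miR-107 and miR-23b-3p were below lysate in all 4 medium groups, comparisons that share the lysate libraries. The 3 members that were not tested, miR-181c-5p, miR-195-5p and miR-424-5p, had 45, 3 and 16 counts in all libraries together.

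Of 9 miRNAs described as targeting the HIF1A mRNA, 6 passed the filter. In S100 2 were higher (33.3%) and 1 was lower (16.7%) than in lysate, beside 32.2% and 30.0% over all tested miRNAs. miR-22-3p, the most abundant miRNA of S100, had 13.4%, 9.83% and 10.5% there and 1.03%, 0.936% and 1.00% in lysate (log2 difference 3.32 ± 0.35, edgeR adjusted p = 6.602e-08). miR-138-5p had 0.156%, 0.120% and 0.159% in S100 and 0.0160%, 0.00509% and 0.0258% in lysate (3.13 ± 0.71, edgeR adjusted p = 0.0005499) and is also among the 8 most alike. Its lysate shares rest on 6, 8 and 17 counts, and it passed the low-count filter only through its S100 libraries. That it was tested at all thus depended on its being high in S100, so its call adds no separate support. miR-155-5p, which both lists hold, was the lower one. The others, miR-17-5p (-0.13 ± 0.54), miR-18a-5p (-0.14 ± 0.56) and miR-20a-5p (-0.71 ± 0.41), were not called.

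In total exRNA, P40 and P100 edgeR called 0 of the 6 in either direction, with 1, 0 and 0 at an unadjusted p below 0.05, and DESeq2 called 0 as well. Over all 227 miRNAs 18.9%, 13.7% and 16.7% were called higher and 16.3%, 13.2% and 20.7% lower in these groups, and with 6 miRNAs a count of 0 is not read as a difference from that. Leaving out 1 library gave 1 call in total exRNA, higher without lysate replicate 3 and lower without lysate replicate 1. The list's median log2 difference was -0.14 in S100, -0.38 in P100, -0.66 in P40 and 0.15 in total exRNA, against -0.04, -0.10, 0.06 and 0.01 over all miRNAs. The untested members miR-20b-5p, miR-199a-5p and miR-519c-3p had 3, 4 and 1 counts in all.

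**Figure D4:**
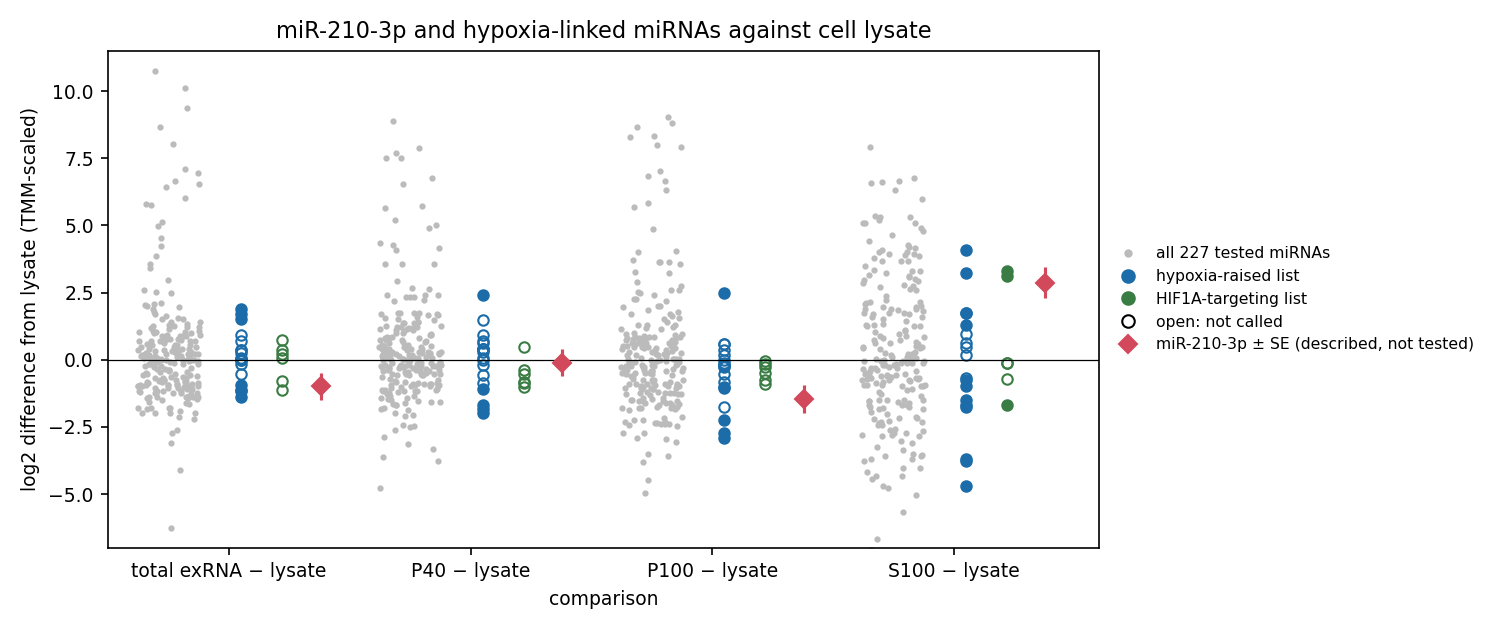
Log2 difference of each medium group from cell lysate (TMM-scaled, edgeR) for all 227 tested miRNAs (grey), the list raised by hypoxia (blue), the list targeting HIF1A (green) and miR-210-3p (red diamond, with SE). Filled list points were called at an adjusted p below 0.05. miR-210-3p is at 2.87 in S100 and at -0.11 to -1.45 in the others, and the lists lie on both sides of 0 in every group except the HIF1A list in P100.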

How the data were processed

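Each library's deposited table gives raw, unscaled read counts of human mature miRNAs and leaves out those with no count. Library preparation used a RealSeq-AC kit, followed by single-end reads of 50 bases, per the labels' protocols. The submitters' processing notes name GRCh38 as the build and Bowtie2, FastQC and cutadapt 1.16 as tools. Not given in the sources used here are the alignment settings, the miRNA annotation release and the rule for reads with several matches. Without molecular identifiers, intervals cover counting error only.

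A miRNA that a file did not list was taken as 0. At least 100 detected miRNAs were required, which 18 of 19 libraries met. Shares were divided by all counts of a library. In R 4.3.3, edgeR 4.0.16 fitted 1 robust quasi-likelihood model with TMM scaling to the 5 groups over the 227 miRNAs that passed filterByExpr (minimum count 10, minimum total 15). They held at least 98.5% of the counts of each library. Calls use a Benjamini-Hochberg adjusted p below 0.05. Alternatives were library size, DESeq2 size factors, DESeq2 1.42.0, no filter, only the pair of groups compared, the batch number as a block, leaving out each library and, added after seeing the data, leaving out 3 libraries that stand apart. The model was also run on simulated counts that had the same spread for every miRNA and library and changes in S100 alone. That setting is simpler than these data, and its outcome is not used here.

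miR-210-3p, the lists and the tests were chosen with earlier results of these data known. Named miRNAs are both arms of the hairpin, the 8 with the highest correlation to miR-210-3p, its neighbours by share, up to 10 called members of each list and comparison, miRNAs within 2 Mb of MIR210 and the markers. miR-324-3p, miR-106b-3p and miR-9-3p were named after their values were seen. Sequences were found for 933 of 1043 miRNAs in RefSeq (GRCh38.p14).

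The labels give a batch number equal to the replicate number, which pairs libraries by label. Over 32 pairs with the same number the deviations from the group means correlated at -0.03 on average (7 pairs over 0.1), and over 97 pairs with different numbers at 0.01.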

Additional observations from a re-analysis of the deposited data

Results flagged for a closer look

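In 3 of 26 groups of 4 libraries examined, for both arms of the hairpin and the 8 most similar miRNAs, 1 library lay far from the others (Dixon's gap ratio past its critical value). Chance flags about 1 group in 20 where values are normally distributed, which was not checked for these shares. That rate does not hold for miR-210-5p, where 3 libraries at 0 make any count in the fourth stand apart. Nor does it hold for miR-338-3p in P100, with 0, 0, 1 and 3 counts. miR-210-5p had 0.0286% of counts in P40 replicate 4, which is 3 counts, and 0 in the other 3 P40 libraries. miR-338-3p had 0.0299% in P100 replicate 4, also 3 counts, and 0%, 0% and 0.0037% in the others. miR-378a-3p had 0.812% in P40 replicate 1, against 1.03%, 1.03% and 1.07% in the others.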

How the results depend on the processing

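The direction of every called value was kept under all alternatives run. Of 380 recomputed shares, ranks, differences and counts, 343 moved by less than the spread between replicates (counts: by at most 1.5 times) and 37 by more. That spread is wide in P40 and total exRNA, so values there count as within it although the report shows large moves. Of 433 recomputed values of called list members, 385 kept their call and 48 lost it. For S100 against lysate, the log2 difference of miR-210-3p (2.87) was 3.28 with DESeq2 size factors, 3.59 with no filter on low counts, 3.28 with DESeq2 and 3.04 to 3.38 with 1 library left out. These settings move the median of all miRNAs as well, by 0.41 with DESeq2 and 0.69 with no filter. For S100 against P100 it was 4.99 with no filter. With the replicate block, which pairs libraries by batch number, it was 2.95 for S100, -1.46 for P100, -1.08 for total exRNA and -0.17 for P40 against lysate, and the block changed no named call other than that of miR-106a-5p in total exRNA. Without miR-92a-3p and miR-7704 in the total, the share was 0.550% in lysate, 0.246% in P100 and 3.38% in S100. With the 48-count library kept the S100 mean was 2.85%. The rank in S100 was 7 to 9 with 1 library left out.

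In the list raised by hypoxia, no filter left 0 lower in total exRNA and 3 lower in S100. In P40, 2 were higher with library size and without the libraries that stand apart, and 3 with DESeq2. DESeq2 gave 2 higher in P100 and 8 higher in S100. With 1 library left out, 3 to 6 were lower in P100 and 5 to 6 in S100. In the list targeting HIF1A, library size gave 1 higher in P40, and no filter left 0 lower in S100. Leaving out 1 library gave 0 to 1 higher and 0 to 1 lower in total exRNA and 0 to 1 lower in S100. Of the 8 most similar miRNAs, 5 were kept with Spearman and 2 without S100. The causes were not tested. With 10017 to 27027 counts, P40 and P100 give shares resting on 18 to 119 counts of miR-210-3p, and a 5′ arm at its S100 proportion could go uncounted there.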
